A study of Arabidopsis thaliana with 16 samples.

Results

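PHERES1 (PHE1) is a type I MADS-box transcription factor of the endosperm, and its chromatin binding was profiled by ChIP-seq in 2 biological replicates whose peaks were called separately. The regions described here are the PHE1 peaks called in replicate 2 on chromosomes 1 to 5 that shared no base with a replicate 1 peak. They numbered 2578 of the 4858 nuclear replicate 2 peaks (53.1%), the other 2280 being overlapped by at least 1 bp of a replicate 1 peak. Both replicates together held 7688 peaks, 2818 of them in replicate 1, and 12 chloroplast peaks of replicate 2 (replicate 1 had 0) were set aside. The chromatin came from whole siliques at 2 days after pollination (DAP) of a self-pollinated Columbia line in which the PHE1 promoter drives a PHE1::PHE1-GFP fusion, so the fusion protein marks endosperm inside a tissue that also holds embryo, seed coat and silique wall. Transcripts were measured by RNA-seq in seeds at 6 DAP, with 2 libraries for each of 3 crosses. All crosses had a Landsberg erecta mother carrying pi-1, which makes her flowers male sterile, and a Columbia father. The fathers were phe1 phe2 osd1, osd1 and wt. The osd1 mutation (allele osd1-3) makes unreduced pollen, so that both the phe1 phe2 osd1 and the osd1 crosses give triploid seeds with an extra paternal genome and the wt cross gives diploid seeds. In phe1 phe2 osd1 the father also lacked intact PHE1, through a CRISPR/Cas9 deletion made in 1 line, and PHE2 (listed as AGL38), through a T-DNA insertion, whereas the pi-1 mother carried both genes intact.

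MADS-box transcription factors bind DNA as dimers at a motif called the CArG-box, a run of A and T bases between a pair of C and a pair of G. Type I MADS-box proteins of plants act mainly in the female gametophyte and the endosperm, the tissue that nourishes the embryo. In the endosperm of Arabidopsis they take part in the timing of cellularization, when the syncytial nuclei become enclosed by walls, and an extra paternal genome delays or prevents that step.

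Among the genes described further on, 3 had a replicate 2 only peak with an exact CArG-box, searched as 2 C, 6 letters of A or T, and 2 G on either strand. The 200 bases around each of those peak centres are shown on the strand of the gene and written 5′ to 3′, from the RefSeq sequence of TAIR10.1, with the CArG-box in capitals. They are the window upstream of GL2 (chr1:30035720-30035919, plus strand), that of AT2G26865 (chr2:11455911-11456110, minus strand) and that of AT2G21930 (chr2:9349641-9349840, minus strand), and no annotated gene reaches into any of them.
GL2: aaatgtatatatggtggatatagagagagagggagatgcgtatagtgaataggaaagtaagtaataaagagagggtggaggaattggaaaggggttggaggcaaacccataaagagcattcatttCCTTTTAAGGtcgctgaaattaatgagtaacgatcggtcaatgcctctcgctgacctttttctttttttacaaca
AT2G26865: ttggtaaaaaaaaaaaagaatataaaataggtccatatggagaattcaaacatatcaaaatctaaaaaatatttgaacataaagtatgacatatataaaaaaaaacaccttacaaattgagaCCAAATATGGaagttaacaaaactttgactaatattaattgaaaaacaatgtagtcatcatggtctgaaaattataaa
AT2G21930: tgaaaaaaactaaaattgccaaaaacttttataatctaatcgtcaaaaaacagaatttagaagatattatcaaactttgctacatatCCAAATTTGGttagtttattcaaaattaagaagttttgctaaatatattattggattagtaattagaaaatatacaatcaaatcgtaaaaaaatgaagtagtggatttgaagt
The boxes began 25 and 22 bases after the peak centre at GL2 and AT2G26865, and 13 bases before it at AT2G21930. Relative to the transcription start site (TSS), with upstream positions negative, the peak centres lay at -1136 bp (GL2), -142 bp (AT2G26865) and -563 bp (AT2G21930). Among called genes with replicate 2 only peaks and no other PHE1 peak, the largest rises in osd1 seeds were those of 2 expansin genes. These genes, EXPA23 (chr5:15731878-15732077, minus strand) and EXPA21 (chr5:15727486-15727685, minus strand), had no exact CArG-box in their peaks. Their windows are given in the same way because both genes lie in 1 cluster of expansin genes, with EXPA22 between them, and both rose, with capitals on the run of 13 bases that the windows share.
EXPA23: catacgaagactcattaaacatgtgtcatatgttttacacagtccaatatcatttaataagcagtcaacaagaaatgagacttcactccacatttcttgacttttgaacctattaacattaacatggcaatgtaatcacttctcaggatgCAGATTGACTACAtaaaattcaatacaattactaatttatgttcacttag
EXPA21: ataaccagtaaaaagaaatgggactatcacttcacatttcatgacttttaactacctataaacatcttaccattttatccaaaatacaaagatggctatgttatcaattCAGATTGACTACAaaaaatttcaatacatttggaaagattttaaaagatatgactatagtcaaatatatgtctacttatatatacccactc
No other run of 10 or more bases was common to both windows.

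The replicate 2 only peaks were narrow. Their median width was 323 bp (quartiles 259 and 439 bp, range 216 to 1642 bp), against 640 bp (quartiles 434 and 913 bp, widest 4420 bp) for the overlapped replicate 2 peaks. Of the replicate 2 only peaks 42.4% were under 300 bp wide, against 10.2% of the overlapped peaks, and 33 reached 1000 bp, against 446. They held 53.1% of the nuclear replicate 2 peaks but 37.5% of the bases that these cover (0.985 Mb). The peak lists give a start and an end and no height or read count, so the depth behind a peak is unknown, and width was the only measure of a peak's size. These values describe the called regions of 1 ChIP and have no replicate of their own.

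Most of the replicate 2 only peaks lay far from any replicate 1 peak. The median gap was 10173 bp, and 1695 peaks (65.8%) were 5 kb or more away. Another 153 peaks lay within 250 bp of a replicate 1 peak and 246 lay between 250 and 1000 bp away. The members nearest to the limit of the rule were a 234 bp peak (chr3:5847529-5847762, nearest to AT3G17150) and a 262 bp peak (chr4:5443626-5443887, nearest to AT4G08550), each with 5 bases between it and a replicate 1 peak. Just outside it, peaks at chr2:13439507-13439832 and chr3:22904928-22905401 overlapped a replicate 1 peak by 3 bp. All 5 chromosomes carried replicate 2 only peaks at similar density, with 699 on chromosome 1, 392 on chromosome 2, 508 on chromosome 3, 383 on chromosome 4 and 596 on chromosome 5, which is 19.9 to 23 per Mb.

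Both kinds of peak sat mainly upstream of genes. The centre of a replicate 2 only peak lay at a median of -210 bp from the nearest TSS, against -239.5 bp for an overlapped peak. A promoter, taken to begin 1000 bp before a TSS and to end 100 bp after it, held 64.2% of the replicate 2 only peaks and 72.4% of the overlapped peaks. Gene bodies held 14.9% and 10.6%, and intergenic space 20.9% and 17%, in the same order. Of the replicate 2 only centres, 74.9% were outside every annotated gene, 16.2% were in an exon part that is not coding, 6.01% in an intron and 2.83% in a coding exon, the last against 2.11% of the overlapped centres. Among the 1963 replicate 2 only peaks with a TSS no more than 1.5 kb after or 0.5 kb before their centre (76.1%, against 81.8% of the overlapped peaks), 321 had their centre downstream of the TSS.

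**Figure D1:**
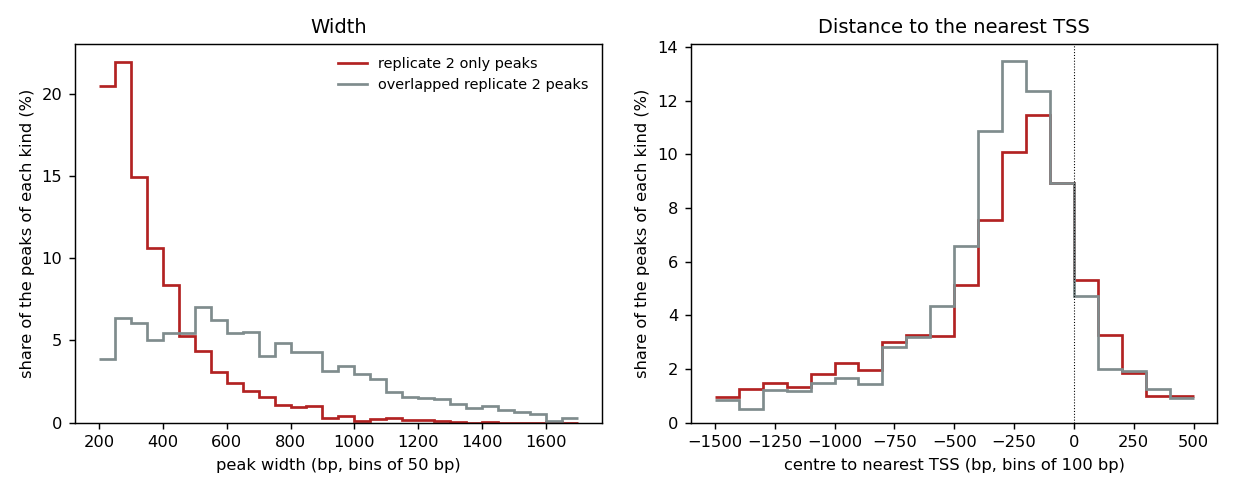
Width in bp (left, bins of 50 bp) and distance in bp of the peak centre to the nearest TSS (right, bins of 100 bp, negative upstream), each as a share of the 2578 replicate 2 only peaks (red) and of the 2280 overlapped replicate 2 peaks (grey). The red curve is highest under 300 bp, where 42.4% of its peaks lie, and its distances are centred at -210 bp.

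An exact CArG-box was rare in the replicate 2 only peaks. It occurred anywhere in the peak in 104 of them (4.03%, exact 95% binomial interval 3.31 to 4.87%, counting error only), against 340 of the overlapped peaks (14.9%), which are wider. In windows of equal length, the 200 bp around the peak centre, it occurred in 2.60% of the replicate 2 only peaks, against 6.05% of the overlapped peaks, 1.56% of windows placed at the same median distance upstream of each gene, and 1.23% of all windows of the genome. The gap between both kinds of peak was present in each class of width. It was 3.11% against 12% under 300 bp, 2.28% against 8.73% at 300 to 400 bp, 2.76% against 7.08% at 400 to 600 bp, and 1.06% against 3.94% at 600 bp and wider. A CArG-like run with 1 mismatch in the outer 4 letters was found in 33.4% of the replicate 2 only windows, against 42.7%, 23% and 18.6% of the overlapped, upstream and genome windows. GC content was 27.5% at the median in the replicate 2 only windows, against 26.5%, 31.5% and 36.5% in those 3 sets. Within windows of 25 to 30% GC, the exact CArG-box occurred in 2.59% of the replicate 2 only windows, 6.68% of the overlapped, 1.35% of the upstream and 1.23% of the genome windows.

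A further set of promoter motifs, chosen after their values were seen, was counted on both strands of the same 200 bp windows. The evening element AAAATATCT, a motif of clock-controlled genes, occurred in 2.72% of the replicate 2 only windows, against 4.21% of the overlapped, 1.65% of the upstream and 0.96% of the genome windows. The G-box CACGTG, a site of bHLH and bZIP factors, occurred in 3.49%, against 3.20%, 3.08% and 2.20%. The telo-box AAACCCTA, common in promoters of ribosomal protein genes, was found in 1.32%, against 1.05%, 3.27% and 2.62%. The GCC-box GCCGCC occurred in 0.815%, against 0.614%, 1.57% and 2.15%, the TCP site TGGGCC in 3.30%, against 2.28%, 5.77% and 3.05%, and the W-box core TTGAC in 36.7%, against 40.4%, 36.3% and 34.2%. These are matches of letters in sequence, and binding of the named factors was not measured.

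The 5 widest replicate 2 only peaks ranged in GC content from 25.5 to 58.5% in the 200 bp around their centres. The widest, 1642 bp, covered AT1G18740, which encodes a protein of the ROH1 family, with its centre in a coding exon 626 bp downstream of the TSS and 46.5% GC. The next, 1609 bp, covered GRP7, an RNA-binding protein under circadian control, 787 bp downstream of its TSS in a coding exon with 58.5% GC. A peak of 1423 bp was centred 138 bp inside NUDT21, a nudix hydrolase, with 35% GC. One of 1340 bp was centred 127 bp upstream of AT2G21300, a kinesin-type microtubule motor, with 43.5% GC. One of 1274 bp lay 1084 bp inside AT5G55790, with 25.5% GC. GRP7 had 569 and 508 RPKM in phe1 phe2 osd1, 444 and 412 RPKM in osd1, and 764 and 529 RPKM in wt seeds. In osd1 it lay below both wt libraries, but its change did not pass the test (log2 fold change -0.57, SE 0.20, limma adjusted p = 0.0802). NUDT21 had 17.9 and 12.0 RPKM in phe1 phe2 osd1, 12 and 25.3 RPKM in osd1, and 6.55 and 5.98 RPKM in wt, and rose in osd1 against wt (log2 fold change 1.41, SE 0.36, limma adjusted p = 0.035). The call on NUDT21 was lost without any 1 of 5 libraries, with adjusted p-values of 0.185 (wt replicate 1), 0.189 (wt replicate 2), 0.0654 (osd1 replicate 2), 0.0564 (phe1 phe2 osd1 replicate 1) and 0.0504 (phe1 phe2 osd1 replicate 2).

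The nearest genes of the replicate 2 only peaks numbered 1851. Of these, 1666 were protein-coding, 95 were long non-coding RNAs and 10 were miRNA genes. Most, 1681 genes, had no other PHE1 peak of either replicate in their window, 170 also had another peak, and 110 genes had 2 or 3 replicate 2 only peaks. The RPKM table held 1650 of the 1851 genes, and 1482 reached a mean of 0.5 RPKM in at least 1 cross and were tested. Of the 1482, 110 had a wt mean under 0.5 RPKM, so that they passed only through the triploid crosses, and 11 passed only through wt. Over the 1650 genes the median level was 11.8 RPKM in phe1 phe2 osd1, 12.0 RPKM in osd1 and 10.3 RPKM in wt seeds, against 5.18, 5.11 and 4.79 RPKM over all 27206 genes of the table. In wt seeds 7.70% of the 1650 genes were listed at 0, against 18.1% of all genes. Where genes with a replicate 2 only peak are counted in a family or list below, the count was not tested against all annotated genes.

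The 6 RNA-seq libraries held about 16200000 to 18100000 reads each, estimated from the spacing of low values, and replicates correlated at 0.961 to 0.989 across genes. PHE1 had 49 and 49.1 RPKM in phe1 phe2 osd1, 200.4 and 169 RPKM in osd1, and 2.92 and 3.10 RPKM in wt seeds. The phe1 allele is a small deletion with an early stop codon, and RPKM do not separate its transcript from that of the intact maternal gene. PHE2 had 37.8 and 32.5, 81.8 and 90.1, and 3.08 and 2.98 RPKM in the same crosses. Both were lower in each phe1 phe2 osd1 library than in each osd1 library, without a pass of the test (PHE1 log2 fold change -1.90, SE 0.13, limma adjusted p = 0.0952). Neither had a replicate 2 only peak, and as related genes they shared 6.89% (PHE1) and 8.07% (PHE2) of their 50-base words with each other. PHE1 was called without osd1 replicate 2 (adjusted p = 0.015) and with no filter on low values (0.0451). Summed levels of embryo and seed coat markers differed between triploid and wt seeds. Those of endosperm markers differed clearly only with PHE1 and PHE2 included. The summed RPKM of 9 endosperm markers, PHE1 and PHE2 included, was 128 to 154 in phe1 phe2 osd1, 307 to 353 in osd1 and 46 to 51.4 in wt. Without PHE1 and PHE2 the other 7 summed to 41.3 and 72.3 in phe1 phe2 osd1, 71 and 47.9 in osd1, and 40 and 45.4 in wt. Here osd1 replicate 2 was close to wt, and phe1 phe2 osd1 replicate 1 lay between both wt libraries. These 7 include AGL62, which has a replicate 2 only peak. AGL62 alone had 11.8 and 27.3 RPKM in phe1 phe2 osd1, 20.8 and 10.4 RPKM in osd1, and 0.108 and 0.10 RPKM in wt. The sum of 10 embryo markers was 89.4 to 119, 66.7 to 129 and 241 to 252 in the same order of crosses, and that of 10 seed coat markers was 1740 to 1910, 1810 to 2130 and 1100 to 1340. Pollen and anther markers stayed at 1.31 to 3.66 over all libraries, with MS1 at 0. The part of these differences in the results below was not tested, and in whole seeds fewer cells of a type and less RNA per cell cannot be told apart.

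The comparison of osd1 with wt seeds asks which genes change in triploid seeds with an extra paternal genome. Among the 1482 tested genes of replicate 2 only peaks, 321 rose in osd1 (21.7%, against 12.6% of all 20051 genes tested) and 198 fell (13.4%, against 13.4% of all). The share that rose was above that of all genes tested, and the share that fell was equal to it. Both shares count genes that passed the filter only through the triploid crosses, where they are high. These were 110 of the 1482, against 188 of the 1531 tested genes of overlapped peaks and 1397 of all 20051. No share was taken without them. Of the 1531 tested genes of overlapped peaks, 529 rose (34.6%) and 202 fell (13.2%). The 1336 genes with replicate 2 only peaks and no other peak showed 275 rises (20.6%) and 173 falls (12.9%), and the 146 that also had another peak showed 46 rises (31.5%) and 25 falls (17.1%). The median log2 fold change was 0.09 over the 1482 genes and 0.07 over the 1336, against 0.32 over the genes of overlapped peaks and 0.01 over all genes tested. Calls were made with limma on log2(RPKM + 0.5) at a Benjamini-Hochberg adjusted p under 0.05, a scale on which the change of low genes is understated. Without wt replicate 1 the calls among the 1482 genes fell to 104 rises and 47 falls (7.00% higher, against 3.38% of all genes), without wt replicate 2 to 153 and 74 (10.3%, against 5.09%), and with no filter on low values to 200 and 127 (12.1%, against 5.53%).

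Wider replicate 2 only peaks had more genes that rose. Among genes with no other peak, 15.4% of 499 rose where the peak was under 300 bp wide, 19.9% of 332 at 300 to 400 bp, 25.7% of 319 at 400 to 600 bp, and 26.9% of 186 at 600 bp and wider, the last 2 being close to each other. The falls were 13, 16, 10.3 and 11.8% in the same classes, in no order. Wt levels were alike in the 4 classes, with medians of 10.3 to 10.7 RPKM. By position of the peak, 20.9% rose where the centre was upstream of the TSS and 19.1% where it was downstream. Within 500 bp upstream 21.6% of 879 genes rose and 12.2% fell, and at 500 to 1500 bp upstream 18.1% of 248 rose and 17.3% fell. Genes with an exact CArG-box in the peak rose in 7 and fell in 7 of 50 cases (14% each), against 20.8% and 12.9% of the 1286 genes without one. Where a replicate 1 peak lay under 1000 bp away, 17 of 64 genes rose (26.6%) and 5 fell (7.81%), against 20.3% and 13.2% of those farther off. In classes of mean level, the share that rose was 12.3% against 5.02% of all genes under a mean of 1 RPKM, 20.8% against 12.7% at 1 to 10 RPKM, 20.5% against 13% at 10 to 100 RPKM, and 26.0% against 19.9% at 100 RPKM and more. None of these shares was tested, because genes are not replicates.

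**Figure D2:**
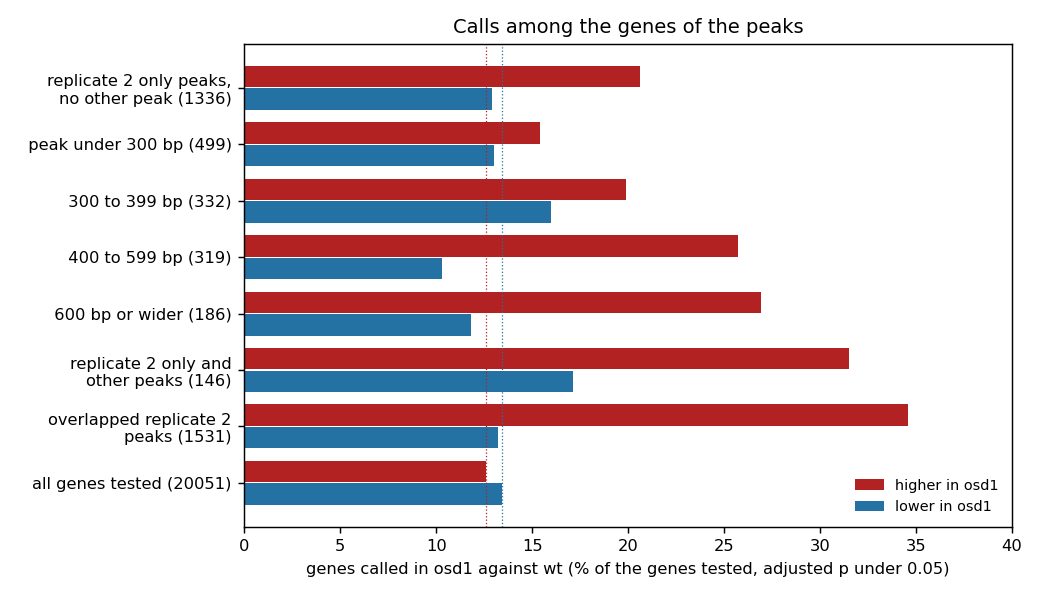
Share of tested genes called in osd1 against wt (%, limma adjusted p under 0.05), higher in osd1 in red and lower in blue, for genes of replicate 2 only peaks, of overlapped peaks and of all genes, with the number tested in brackets and dotted lines at the shares of all genes. Rises were 15.4% for peaks under 300 bp and 26.9% at 600 bp and wider, against 12.6% of all genes.

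The 8 largest rises among genes with replicate 2 only peaks and no other peak were those of 2 expansins, an aspartyl protease, a kelch repeat protein, a defensin-like protein and 3 uncharacterized genes. EXPA23, an alpha-expansin that loosens cell walls, had 522 and 918 RPKM in phe1 phe2 osd1, 1378 and 455 RPKM in osd1, and 3.69 and 6.82 RPKM in wt seeds. Every triploid library was far above both wt libraries, and the osd1 libraries, which differed most from each other, lay on both sides of the phe1 phe2 osd1 libraries (log2 fold change osd1 against wt 7.16, SE 0.57, limma adjusted p = 0.000664). EXPA21 had 585 and 415 RPKM in phe1 phe2 osd1, 1428 and 634 RPKM in osd1, and 5.72 and 7.23 RPKM in wt. It rose by 7.10 on the log2 scale in osd1 (SE 0.39, limma adjusted p = 0.000292), with both osd1 libraries above both phe1 phe2 osd1 libraries. Reads of the expansins are uncertain, because 54.5% of the 50-base words of EXPA23 and 34.3% of those of EXPA21 occur in other genes, mostly AT5G39300 and the overlapping AT5G39250.

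AT1G56233, of unknown function, had 251 and 156 RPKM in phe1 phe2 osd1, 554 and 273 RPKM in osd1, and 2.01 and 3.04 RPKM in wt, with osd1 above both other crosses in each library (log2 fold change against wt 7.03, SE 0.39, limma adjusted p = 0.000303). Its peak was centred 279 bp inside the gene, in a coding exon. AT3G01325, uncharacterized, had 192 and 182, 334 and 203, and 2.14 and 1.82 RPKM in phe1 phe2 osd1, osd1 and wt. It rose by 6.72 on the log2 scale (SE 0.23, limma adjusted p = 0.000148). AT1G44130, an aspartyl protease, had 47.5 and 52.5 RPKM in phe1 phe2 osd1, 121 and 35.9 RPKM in osd1, and 0 and 0.139 RPKM in wt, and here the osd1 libraries lay on both sides of the phe1 phe2 osd1 libraries (log2 fold change against wt 6.88, SE 0.53, limma adjusted p = 0.000619). AT5G40680, a kelch repeat protein, had 58.1 and 6.10 RPKM in phe1 phe2 osd1, 144 and 60.4 RPKM in osd1, and 0.197 and 0.499 RPKM in wt. AT1G56415, uncharacterized, had 57.3 and 250.3 RPKM in phe1 phe2 osd1, 157 and 28.7 RPKM in osd1, and 0 and 0.85 RPKM in wt, under the widest peak of the group (1204 bp). AT1G58055, a defensin-like protein, had 64.3 and 345 RPKM, 128 and 66.1 RPKM, and 0.796 and 1.10 RPKM in the same order. The last 3 genes rose in osd1 (limma adjusted p = 0.00478, 0.00679 and 0.00292), and each lost its call without wt replicate 1 (adjusted p = 0.0771, 0.0929 and 0.0584), AT5G40680 also without wt replicate 2 (0.0556).

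The 8 largest falls in osd1 were counted among the same genes. AT4G27450, a protein with the YGL and LRDR motifs of the aluminium-induced family, had 14.2 and 13.6 RPKM in phe1 phe2 osd1, 8.20 and 9.67 RPKM in osd1, and 326 and 239 RPKM in wt. All triploid libraries were far below wt, and the osd1 libraries lay below the phe1 phe2 osd1 libraries (log2 fold change osd1 against wt -4.89, SE 0.18, limma adjusted p = 0.000161). IQD25, a calmodulin-binding IQ67-domain protein, had 3.42 and 6.06 RPKM in phe1 phe2 osd1, 2.32 and 2.37 RPKM in osd1, and 45.3 and 43 RPKM in wt (log2 fold change -3.97, SE 0.26, limma adjusted p = 0.000402). CHR38, a chromatin remodeller also called CLASSY1 that acts in RNA-directed DNA methylation, had 3.27 and 4.36 RPKM in phe1 phe2 osd1, 3.30 and 3.99 RPKM in osd1, and 33.1 and 22.7 RPKM in wt. Its fall of 2.76 on the log2 scale had an SE of 0.25 and a limma adjusted p of 0.000915. FLC, the MADS-box repressor of flowering, had 0.707 and 1.13, 0.694 and 0.655, and 8.12 and 6.80 RPKM in phe1 phe2 osd1, osd1 and wt (log2 fold change -2.76, SE 0.25, limma adjusted p = 0.000999). FLC is uncertain, since 88.0% of its 50-base words lie in the overlapping gene AT5G01675 and the counting is not stated to use strand. CYCB2;2, a mitotic B-type cyclin, had 1.48 and 2.1 RPKM in phe1 phe2 osd1, 1.38 and 1.26 RPKM in osd1, and 9.78 and 10.9 RPKM in wt, below wt in every triploid library (log2 fold change -2.57, SE 0.22, limma adjusted p = 0.000844). The others were AT1G72430, a SAUR-like gene (log2 fold change -3.22), AT5G10310, which encodes an EPIDERMAL PATTERNING FACTOR-like peptide (-2.65), and AT5G57123 (-3.37), and of the 8 only AT5G57123 lost its call without a wt library (adjusted p = 0.13 without replicate 1 and 0.126 without replicate 2).

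**Figure D3:**
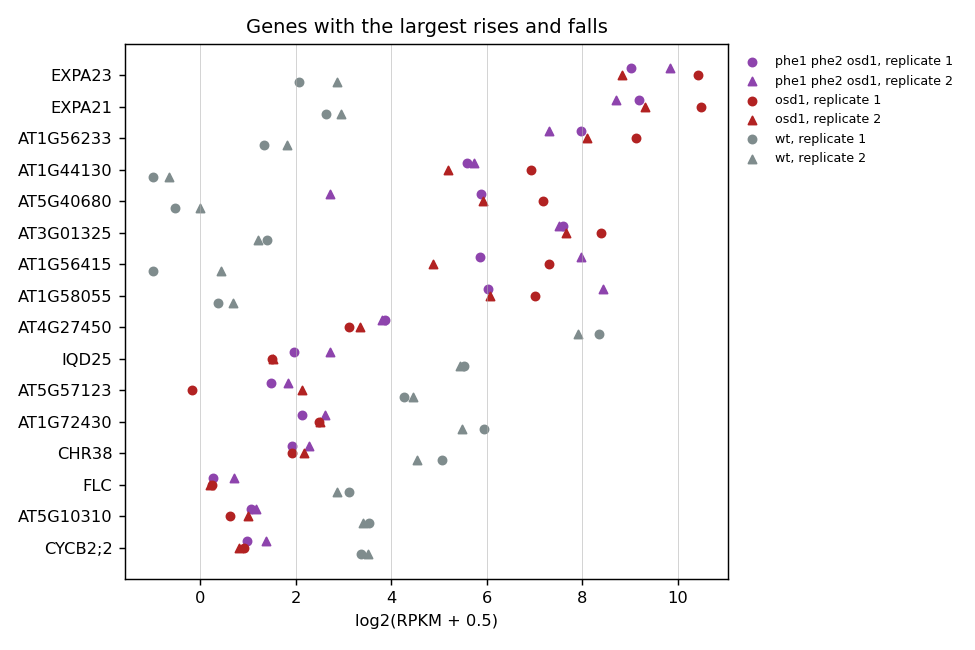
Level of the 8 genes with the largest rise and the 8 with the largest fall in osd1 against wt, among called genes with replicate 2 only peaks and no other peak, as log2(RPKM + 0.5) with 1 point per library (circles replicate 1, triangles replicate 2). No wt point lies among the triploid points of the same gene, and for EXPA23 the osd1 points, at 1378 and 455 RPKM, enclose those of phe1 phe2 osd1.

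A list of 51 regulators of seed development had 10 genes with a replicate 2 only peak, 8 of them with no other peak, and 17 with an overlapped peak. Of the 10, 3 rose and 2 fell in osd1 against wt, while over the list 17 of 47 tested rose and 16 fell. AGL62, a type I MADS-box protein that holds back endosperm cellularization, had 11.8 and 27.3 RPKM in phe1 phe2 osd1, 20.8 and 10.4 RPKM in osd1, and 0.108 and 0.10 RPKM in wt. It was high in all 4 triploid libraries with no order between their crosses, and rose by 4.66 on the log2 scale in osd1 (SE 0.47, limma adjusted p = 0.00136). Its replicate 2 only peak (chr5:24305195-24305429) was 235 bp wide, centred 69 bp upstream of the TSS and 205 bp from a replicate 1 peak, and the gene also had another peak. TAR1, a tryptophan aminotransferase of auxin synthesis, had 4.72 and 36.9 RPKM in phe1 phe2 osd1, 11.5 and 6.28 RPKM in osd1, and 0 and 0.34 RPKM in wt (log2 fold change 3.8, SE 0.89, limma adjusted p = 0.0261). MYB119, which acts in the cellularization of the female gametophyte, had 1.66 and 0.254 RPKM in phe1 phe2 osd1, 5.19 and 1.89 RPKM in osd1, and was listed at 0 in both wt libraries (limma adjusted p = 0.0189). Like AGL62, MYB119 also had another peak. Both osd1 libraries of MYB119 were above both phe1 phe2 osd1 libraries, a difference with an unadjusted limma p of 0.0454 and an adjusted p of 1. The calls of TAR1 and MYB119 were lost without wt replicate 1 (adjusted p = 0.195 and 0.138), without wt replicate 2 (0.122 and 0.121) and without osd1 replicate 1 (0.0913 and 0.0638).

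ICE1, a bHLH protein that pairs with ZHOUPI in endosperm breakdown, fell in osd1. It had 99.7 and 78.7 RPKM in phe1 phe2 osd1, 60.6 and 84.5 RPKM in osd1, and 436 and 373 RPKM in wt, below wt in every triploid library (log2 fold change osd1 against wt -2.49, SE 0.20, limma adjusted p = 0.00071). SWN, a histone methyltransferase of Polycomb repressive complex 2, had 32.2 and 28.7 RPKM in phe1 phe2 osd1, 27.5 and 29.3 RPKM in osd1, and 45.9 and 44 RPKM in wt (log2 fold change -0.65, SE 0.12, limma adjusted p = 0.0102). The SWN call was lost without wt replicate 1 (adjusted p = 0.0999) and without wt replicate 2 (0.0738). YUC11, a flavin monooxygenase of auxin synthesis, had 0.345 and 0.884 RPKM in phe1 phe2 osd1, 2.22 and 0 RPKM in osd1, and 0.209 and 0.193 RPKM in wt. Its osd1 libraries lay on either side of wt, and the sign of its log2 fold change (0.74, limma adjusted p = 0.524) turned to -0.49 without osd1 replicate 1 and stayed positive, with a call at an adjusted p of 0.0222, without osd1 replicate 2. TAA1, which makes the same intermediate as TAR1, had 3.77 and 7.86, 4.02 and 4.91, and 5.48 and 5.38 RPKM in phe1 phe2 osd1, osd1 and wt. ARF2, an auxin response factor that limits seed size, had 63.8 and 58.5, 77.6 and 61.8, and 97.3 and 91.1 RPKM, all triploid libraries being below wt without a pass of the test (log2 fold change osd1 against wt -0.44, SE 0.14, limma adjusted p = 0.0664, but 0.0262 without osd1 replicate 1). DA1, which restricts seed and organ size, had 6.72 to 7.73 RPKM over all 6 libraries, and AGL80, a type I MADS-box protein of the central cell, had 4.94 and 6.17, 4.34 and 6.30, and 2.61 and 3.77 RPKM (limma adjusted p = 0.126).

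A list of 30 genes of endosperm walls and embryo maturation had 2 genes with a replicate 2 only peak, and 0 rose and 1 fell in osd1, while over the list, with 30 tested, 6 rose and 8 fell. LEC1, a nuclear factor Y subunit that controls embryo maturation, had 99.8 and 74.4 RPKM in phe1 phe2 osd1, 47.2 and 110 RPKM in osd1, and 195 and 190 RPKM in wt. Both osd1 libraries were below wt but differed widely (log2 fold change -1.41, SE 0.38, limma adjusted p = 0.0404), and the call was lost without wt replicate 1 (adjusted p = 0.221), wt replicate 2 (0.189), phe1 phe2 osd1 replicate 1 (0.072) or replicate 2 (0.0653), with only the osd1 and wt crosses in the fit (0.0652) and with no filter on low values (0.154). LEC1 is among the embryo markers, and the other 9 summed to 19 and 15 RPKM in phe1 phe2 osd1, 19.5 and 18.3 RPKM in osd1, and 56.5 and 51.2 RPKM in wt. GL2, a homeodomain protein of the seed coat and epidermis whose CArG-box is printed above, had 124 and 177 RPKM in phe1 phe2 osd1, 109 and 238 RPKM in osd1, and 210 and 258 RPKM in wt. Its osd1 libraries overlapped wt and it was not called (log2 fold change -0.53, SE 0.37, limma adjusted p = 0.344), while without osd1 replicate 2 it was called at an adjusted p of 0.0266 and without osd1 replicate 1 its sign turned (0.03).

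**Figure D4:**
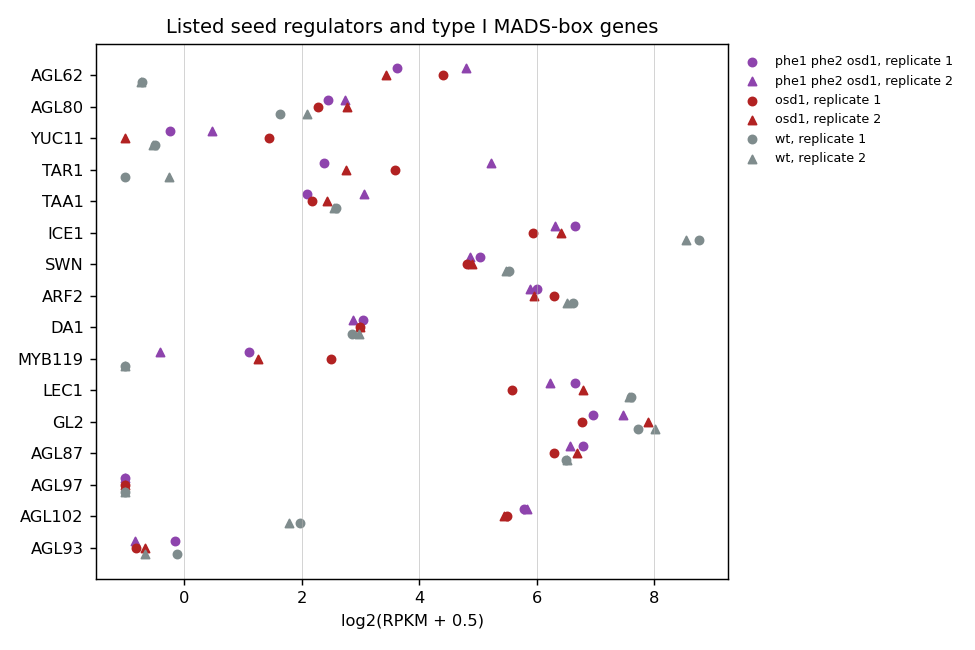
Level of the listed seed regulators, wall and embryo genes and type I MADS-box genes with a replicate 2 only peak, as log2(RPKM + 0.5) with 1 point per library (circles replicate 1, triangles replicate 2). Of the called genes, AGL62, TAR1, MYB119 and AGL102 have wt points below all osd1 points, and ICE1, SWN and LEC1 have wt points above them. Of the genes not called, AGL80 and DA1 also have wt points below all osd1 points, and ARF2 and TAA1 above them. AGL97 is listed at 0 in all 6 libraries.

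The MADS-box family was represented by 14 genes with a replicate 2 only peak. Of 50 type I genes matched by symbol 6 had one, against 17 with an overlapped peak. AGL102, a type I member of unknown role, had 54.5 and 56.8 RPKM in phe1 phe2 osd1, 44.9 and 43.2 RPKM in osd1, and 3.42 and 2.96 RPKM in wt, and its replicates were close in each cross (log2 fold change osd1 against wt 3.60, SE 0.13, limma adjusted p = 0.000148). It and AGL62 were the 2 called of 4 tested, both higher, while over the whole type I family 18 of 27 tested genes rose and 0 fell in osd1. AGL87 had 77.7 to 111 RPKM over all libraries and did not pass the test (limma adjusted p = 0.959), AGL93 stayed under 0.43 RPKM, with 60.1% of its 50-base words in other genes, and AGL97 was listed at 0 in every library. Of 48 type II genes, which include the floral organ identity genes, 8 had a replicate 2 only peak, against 6 with an overlapped peak, and of the 6 tested 3 rose and 2 fell, while over the family 9 of 32 tested rose and 3 fell. AGL33 had 79.7 and 43.3 RPKM in phe1 phe2 osd1, 58.2 and 63.1 RPKM in osd1, and 7.25 and 8.23 RPKM in wt (log2 fold change 2.89, SE 0.28, limma adjusted p = 0.00115), with 2 replicate 2 only peaks and another peak beside it. AP3, a petal and stamen identity gene, had 148 and 203, 156 and 177, and 67.1 and 85.3 RPKM (limma adjusted p = 0.00909, and 0.0999 without wt replicate 1), and its peak was centred on its TSS. AG, the stamen and carpel identity gene, rose to 13.2 and 13.8 RPKM in osd1, against 6.05 and 9.18 RPKM in wt (limma adjusted p = 0.0439). AGL15, a gene of embryos, fell to 6.68 and 9.61 RPKM in osd1, against 22.6 and 22.3 RPKM in wt (limma adjusted p = 0.00513).

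Of 11 cell wall genes with a replicate 2 only peak, all tested, 6 rose and 0 fell in osd1, whereas over the whole family 20 of 102 tested genes rose and 17 fell. Beside EXPA21 and EXPA23, the beta-expansin EXPB4 had 20.1 and 51.4 RPKM in phe1 phe2 osd1, 54.1 and 12.8 RPKM in osd1, and 0.0641 and 0.118 RPKM in wt (log2 fold change 5.51, SE 0.71, limma adjusted p = 0.00322). GATL7, a galacturonosyltransferase-like protein of pectin or xylan synthesis, had 62.7 and 36.4, 66.6 and 45, and 10.2 and 10.7 RPKM (limma adjusted p = 0.00291). XTH30, a xyloglucan endotransglucosylase/hydrolase, had 97.7 and 113 RPKM in osd1, against 33.7 and 45.4 RPKM in wt, and the callose synthase gene GSL04 had 8.64 and 6.89 RPKM in osd1, against 4.17 and 2.92 RPKM in wt (limma adjusted p = 0.00299 and 0.0207). No osd1 library of these genes lay within the range of wt. The other 5, which did not pass, were XTH11, the cellulose synthases CESA4 and CESA6, the cellulose synthase-like gene CSLD2 and GATL10. GATL10 had 0.743 and 6.45 RPKM in osd1, against 9.77 and 5.89 RPKM in wt (log2 fold change -1.46, limma adjusted p = 0.207). CESA6 was at 31.9 and 25.6 RPKM in osd1, against 17.7 and 17.7 RPKM in wt (limma adjusted p = 0.0596).

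Defensin-like genes encode small cysteine-rich secreted peptides. Of 123 matched by gene symbol, 12 had a replicate 2 only peak, 8 of them with no other peak, against 31 with an overlapped peak. AT1G58055, the defensin-like gene named above, has no such symbol and is not among them. Of the 10 tested 6 rose and 0 fell in osd1, while 40 of 69 tested rose and 8 fell over the whole family. LCR73 and LCR36, named below, also had another PHE1 peak. LCR73 had 674 and 663 RPKM in phe1 phe2 osd1, 708 and 734 RPKM in osd1, and 117 and 125 RPKM in wt, and LCR84 had 440.3 and 437, 428 and 431, and 164 and 166 RPKM. Replicates differed little in both genes (log2 fold change osd1 against wt 2.57 and 1.38, limma adjusted p = 0.000183 and 0.000583). LCR36 had 64 and 44.3 RPKM in phe1 phe2 osd1, 122 and 51.6 RPKM in osd1, and 0 and 0.49 RPKM in wt (log2 fold change 6.83, SE 0.49, limma adjusted p = 0.000539). LCR63, SCRL4 and SCRL8 were the others that rose, with log2 fold changes of 4.57, 3.82 and 3.61. LCR49, which did not pass, had 12.3 and 29.9 RPKM in osd1, against 53 and 46.2 RPKM in wt (limma adjusted p = 0.0515).

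Genes of plant hormones were counted by pathway. Cytokinin genes with a replicate 2 only peak numbered 7, of which 5 had no other peak. Of the 6 tested, 3 rose and 1 fell in osd1, while over the family 9 of 45 tested rose and 7 fell. RR23, named below, also had another PHE1 peak. RR19, a type B response regulator, had 43.2 and 30.5 RPKM in phe1 phe2 osd1, 38 and 40.1 RPKM in osd1, and 3.66 and 3.51 RPKM in wt (log2 fold change 3.28, SE 0.18, limma adjusted p = 0.000306). RR23, another response regulator, had 4.28 and 3.59 RPKM in osd1, against 0.14 and 0.388 RPKM in wt, and IPT4, an isopentenyltransferase of cytokinin synthesis, had 3.30 and 0.886 RPKM in osd1 and was listed at 0 in both wt libraries (limma adjusted p = 0.0018 and 0.0351). AHP2, a phosphotransmitter of the same pathway, fell to 21.3 and 26.1 RPKM in osd1, against 40.1 and 35.7 RPKM in wt (limma adjusted p = 0.019, but 0.153 without wt replicate 1, 0.0849 without wt replicate 2 and 0.0519 without osd1 replicate 1). Of 7 brassinosteroid genes, 6 were tested and 0 rose and 3 fell, in a family where 7 of 36 tested rose and 16 fell. BES1, a transcription factor of brassinosteroid response, had 23.2 and 15.5 RPKM in phe1 phe2 osd1, 14.1 and 19.2 RPKM in osd1, and 85.4 and 76.1 RPKM in wt (log2 fold change -2.26, SE 0.24, limma adjusted p = 0.00153), with 33.8% of its 50-base words in other genes, mostly the overlapping AT1G19360. Its homolog BEH3 (1.96 and 4.82 RPKM in osd1, 9.60 and 10.1 RPKM in wt) and the phosphatase gene BSL2 (15.1 and 15.8 RPKM in osd1, 23 and 22.5 RPKM in wt) also fell, and the receptor gene BRI1 did not pass (24.3 and 16.4 RPKM in osd1, 29.8 and 26.2 RPKM in wt, limma adjusted p = 0.191). BEH3 lost its call without either wt library or either phe1 phe2 osd1 library, with adjusted p-values of 0.0525 to 0.175. Auxin synthesis and transport had 4 genes with a replicate 2 only peak, of which 3 were tested and TAR1 alone rose (7 rises and 2 falls among 23 tested over the family). Aux/IAA and ARF genes had 3, with 0 called (11 rises and 7 falls among 43). Of 37 SWEET, SUC and invertase genes 0 had a replicate 2 only peak, against 3 with an overlapped peak. Whether 0 of 37 is fewer than among other genes was not tested.

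Other transcription factor families are given with the counts of rises and falls in osd1 over the whole family. Of the genes named below, CRF3, HDG11, MYB70 and MYB119 also had another PHE1 peak. Of the 9 ERF/DREB genes with a replicate 2 only peak 7 were tested, ERF11 and ERF8 rose and CRF3 fell (6 rises and 5 falls among 46 tested over the family). ERF8 lost its call without wt replicate 1 (limma adjusted p = 0.0782), wt replicate 2 (0.13) or osd1 replicate 2 (0.0546). ERF11, a repressor of ethylene response, had 32.4 and 22.7 RPKM in phe1 phe2 osd1, 19.5 and 20.5 RPKM in osd1, and 3.66 and 3.20 RPKM in wt (log2 fold change 2.38, SE 0.20, limma adjusted p = 0.000759). Homeodomain genes numbered 9, with 8 tested, 1 rise (HDG11) and 3 falls (HB6, HB34 and HDG1), in a family with 8 rises and 20 falls among 57 tested. HDG1 fell to 3.65 and 3.61 RPKM in osd1, against 11.3 and 10.8 RPKM in wt (limma adjusted p = 0.00196). Of the 4 tested MYB genes MYB70, MYB22 and MYB119 rose (16 rises and 10 falls among 51 over the family), MYB70 with 49.5 and 40.8 RPKM in osd1, against 14.4 and 18.3 RPKM in wt (limma adjusted p = 0.00909, but 0.106 without wt replicate 1 and 0.0577 without wt replicate 2). Among 7 WRKY genes, which act mainly in defence, WRKY46 rose and WRKY11 fell (limma adjusted p = 0.0499 and 0.0218), against 5 rises and 6 falls among 40 over the family. The call on WRKY11 was lost without wt replicate 1 (0.167), wt replicate 2 (0.114) or osd1 replicate 1 (0.0704). Of 3 tested NAC genes 1 fell (NAC019), against 10 rises and 8 falls among 48 over the family. Of 6 bZIP genes 1 rose (BZIP53) and 1 fell (TGA3), against 4 rises and 6 falls among 36. Genes of histone and DNA methylation numbered 9 with 7 tested, among which SUVH9 rose and SWN fell, against 8 rises and 20 falls among 78 over the family. SUVH9, a reader of methylated DNA in RNA-directed DNA methylation, had 23.9 and 17.5 RPKM in osd1, against 12.1 and 12.0 RPKM in wt (limma adjusted p = 0.0264), and lost its call without wt replicate 1 (0.159), wt replicate 2 (0.146), osd1 replicate 1 (0.062) or phe1 phe2 osd1 replicate 1 (0.0519).

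Imprinted genes are expressed mainly from the maternal or the paternal allele in endosperm, and the study compiled lists of 150 paternally and 146 maternally expressed genes from earlier reports. Of the paternally expressed genes 30 had a replicate 2 only peak, 28 of them with no other peak, against 42 with an overlapped peak. The genes named here were chosen after their values were seen. Among the 28 tested 16 rose and 5 fell in osd1, while over the list 64 of 145 tested rose and 21 fell. AT3G50720, a protein kinase, had 12.6 and 13.2 RPKM in phe1 phe2 osd1, 20.2 and 11 RPKM in osd1, and 0.0541 and 0.0499 RPKM in wt (log2 fold change 4.81, SE 0.30, limma adjusted p = 0.000363). SMAP2, a small acidic protein, had 164 and 203, 129 and 155, and 5.24 and 6.41 RPKM in phe1 phe2 osd1, osd1 and wt (log2 fold change 4.49, SE 0.17, limma adjusted p = 0.000167), under a peak of 640 bp centred 83 bp upstream of its TSS. In both genes every triploid library was above wt and the 2 triploid crosses were of like level. NF-YC7, a nuclear factor Y subunit, had 37.7 and 37.9, 33.3 and 31.3, and 5.09 and 3.54 RPKM (log2 fold change 2.79, SE 0.18, limma adjusted p = 0.000402). The F-box genes AT1G60400, AT4G02733 and AT3G47030 rose by 3.39, 3.26 and 2.52 on the log2 scale, and AT4G11400, an ARID and ELM2 domain protein, by 3.14. AT2G21930, the F-box-associated gene whose CArG-box is printed above, had 1.83 and 1.80 RPKM in phe1 phe2 osd1, 1.64 and 2.46 RPKM in osd1, and 0.70 and 0.38 RPKM in wt (limma adjusted p = 0.0225), and lost its call without wt replicate 1 (0.0732), wt replicate 2 (0.124) or osd1 replicate 2 (0.0753).

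The 5 paternally expressed genes that fell were FLC, BEH3, RIN13, AT3G50780 and AT5G54530, the last of which also had another PHE1 peak. RIN13 and AT3G50780 lost their calls without wt replicate 1 (limma adjusted p = 0.129 and 0.14) or wt replicate 2 (0.119 and 0.111), and AT3G50780 also without osd1 replicate 1 (0.0684). AT5G54530, which encodes a DUF538 protein, had 124 and 156 RPKM in phe1 phe2 osd1, 75.9 and 128 RPKM in osd1, and 213 and 222 RPKM in wt (limma adjusted p = 0.0223, but 0.149 without wt replicate 1 and 0.145 without wt replicate 2). Of the maternally expressed genes 10 had a replicate 2 only peak, all tested, with 3 rises and 1 fall, against 25 and 16 of 115 over the list. AT5G42235, the most abundant of them, had 323 and 402 RPKM in phe1 phe2 osd1, 291 and 378 RPKM in osd1, and 176 and 221 RPKM in wt (limma adjusted p = 0.0369, but 0.24 without wt replicate 1, 0.10 without wt replicate 2, 0.105 without osd1 replicate 2 and 0.0546 without phe1 phe2 osd1 replicate 1). AT5G41830 fell to 2.74 and 3.13 RPKM in osd1, against 18.5 and 18.1 RPKM in wt (log2 fold change -2.46, limma adjusted p = 0.000459).

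**Figure D5:**
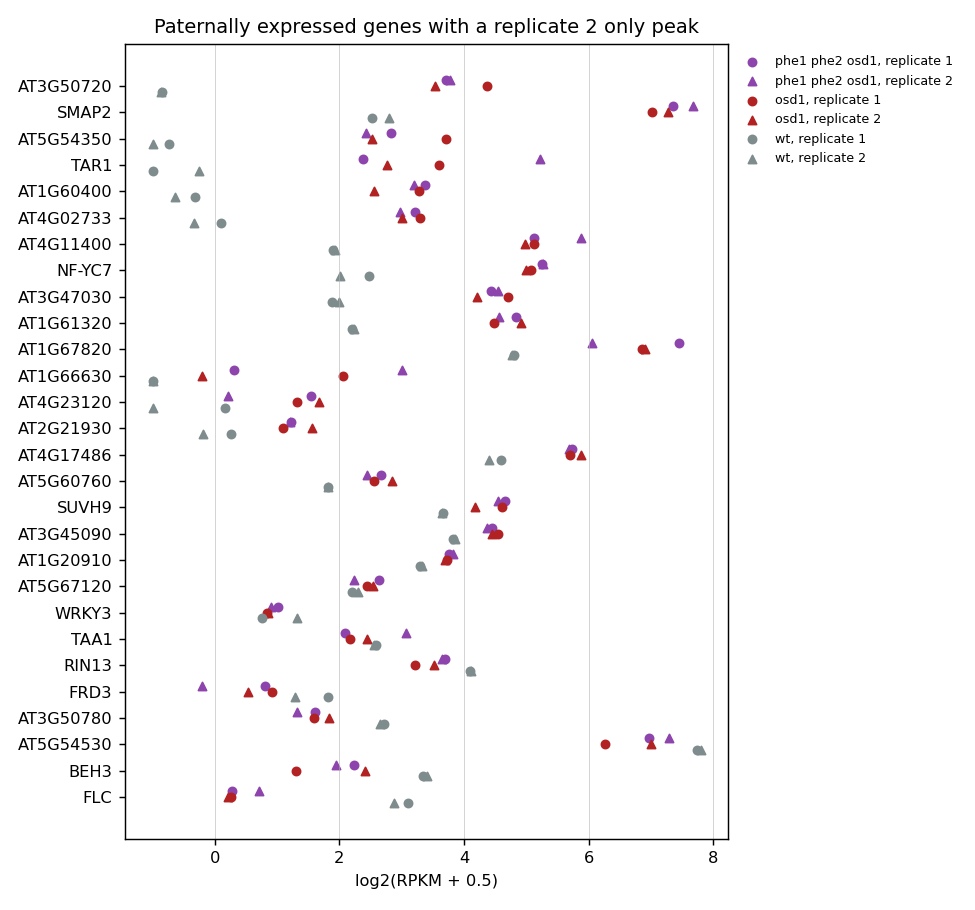
Level of the 28 tested paternally expressed genes with a replicate 2 only peak, as log2(RPKM + 0.5) with 1 point per library (circles replicate 1, triangles replicate 2), ordered by the log2 fold change of osd1 against wt. The order runs down to FLC, and in the 16 genes called higher all osd1 points lie above the wt points.

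The comparison of phe1 phe2 osd1 with osd1 seeds asks which genes depend on paternal PHE1 and PHE2 in triploid seeds. No gene of a replicate 2 only peak was called by limma in either direction at an adjusted p under 0.05, against 0% of all 20051 genes tested. At an unadjusted p under 0.05 limma gave 24 higher (1.62%, against 1.75% of all genes) and 12 lower (0.81%, against 1.02%) in phe1 phe2 osd1. Among the 1531 genes of overlapped peaks it gave 26 higher (1.70%) and 35 lower (2.29%). The rank product, with an unadjusted p under 0.05, called 92 higher (5.58%, against 8.69% of all genes) and 99 lower (6.00%, against 8.33%) among the 1650 genes of replicate 2 only peaks. It ranked all 27206 genes with no filter on low values, and 18.1% of these were at 0 in wt, against 7.70% of the 1650. The part of level in these shares was not tested. In the limma fit the median log2 fold change of the genes of replicate 2 only peaks was -0.01, against 0.01 over all genes tested. Without osd1 replicate 2, 1 gene was called. It was AT3G56260, chosen after its values were seen, which had 36.2 and 63.2 RPKM in phe1 phe2 osd1, 2.75 and 67.7 RPKM in osd1, and 133 and 133 RPKM in wt, so that the low osd1 replicate 1 decided it.

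The genes with the largest differences at that unadjusted threshold among genes with no other peak, all 4 pairs of libraries moving the same way, carried no adjusted call (limma adjusted p = 1 for each). AT2G26865, the uncharacterized gene whose window with a CArG-box is printed above, had 2.44 and 1.85 RPKM in phe1 phe2 osd1, 7.20 and 5.65 RPKM in osd1, and was listed at 0 in both wt libraries. The phe1 phe2 osd1 libraries lay between those of the other crosses (log2 fold change phe1 phe2 osd1 against osd1 -1.39, SE 0.25, unadjusted p = 0.00141 in the limma fit over all genes, no exact test being able to pass with 2 libraries a cross). AT3G12190, annotated as a golgin family protein, had 1.65 and 0, 5.40 and 3.02, and 0 and 0.0699 RPKM, and AT5G54215, a cysteine-rich protein, had 30.8 and 8.25, 59.8 and 33.9, and 2.19 and 1.80 RPKM in phe1 phe2 osd1, osd1 and wt. Both were lower in each phe1 phe2 osd1 library than in each osd1 library (log2 fold change -2.14 and -1.46, unadjusted p = 0.0198 and 0.0477 in the same fit, with no exact test). In the other direction, RALFL28, a peptide of the rapid alkalinization factor family, had 15.9 and 74.7 RPKM in phe1 phe2 osd1, 11.7 and 9.70 RPKM in osd1, and 4.75 and 5.27 RPKM in wt, with 1 library far above the rest (unadjusted p = 0.0414 in the same fit, with no exact test). The thionin family genes AT5G63063 (1.5 and 3.08 RPKM in phe1 phe2 osd1, 0.492 and 0.504 RPKM in osd1) and AT2G20595 (0.828 and 1.69 RPKM, against 0.541 and 0.139 RPKM) were low in all crosses.

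The comparison of phe1 phe2 osd1 with wt uses the same wt libraries as that of osd1 with wt, so the counts are set side by side and no likeness is drawn from them. Of the 1482 genes of replicate 2 only peaks, 296 rose in phe1 phe2 osd1 (20%, against 12.1% of all genes) and 191 fell (12.9%, against 12.5%). The genes of overlapped peaks gave 491 rises (32.1%) and 196 falls (12.8%), and those with replicate 2 only peaks and no other peak gave 256 (19.2%) and 169 (12.6%). The median log2 fold change was 0.10 over the 1482 genes and 0.01 over all genes. Without wt replicate 1 the calls dropped to 91 and 32, without wt replicate 2 to 128 and 57, without phe1 phe2 osd1 replicate 1 to 201 and 115, and without its replicate 2 to 210 and 89. EXPA23 and EXPA21 rose in phe1 phe2 osd1 by 6.97 and 6.15 on the log2 scale (SE 0.57 and 0.39, limma adjusted p = 0.000902 and 0.000444), against 7.16 and 7.10 in osd1. AGL102 rose by 3.93, AGL62 by 4.94 and SMAP2 by 4.86, against 3.60, 4.66 and 4.49 in osd1, and ICE1 fell by 2.18, against 2.49 in osd1. MYB119 and LEC1, called in osd1, were not called in phe1 phe2 osd1 (limma adjusted p = 0.162 and 0.075), and the difference between both triploid crosses did not pass the test for either gene (adjusted p = 1). They were not alone, since AT3G12190 and AT5G54530 also lacked a call there (limma adjusted p = 0.354 and 0.12). In turn ARF2 and RALFL28, not called in osd1, were called in phe1 phe2 osd1 (limma adjusted p = 0.0243 and 0.0297).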

How the data were processed

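PHE1 peaks and RPKM were taken as deposited. Per the labels and methods, the authors aligned ChIP reads to TAIR10 with Bowtie 1.2.2 and called peaks with MACS2 2.1.1 for each replicate against its own input. The deposited peak lists hold start and end positions (unit: other) and no signal, score or count, and are printed counted from 1. The replicate 2 list holds more peaks than the study's summary of called peaks gives for that replicate, and was used as deposited. The authors mapped RNA-seq reads with TopHat2 2.1.0 and computed the deposited RPKM with GFOLD, which scales by length and mapped reads. Unused value columns numbered 0.

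Peaks were intersected with bedtools 2.31.1 (minimum overlap 1 bp), and each centre was given to the nearest TSS of 37899 genes of TAIR10.1, whose chromosome lengths hold all peaks. Of 27206 table IDs, 26719 were in the annotation. Genes with a mean of at least 0.5 RPKM in at least 1 cross (20051) were tested with limma 3.58.1 in R 4.3.3 (eBayes with trend, all 6 libraries in 1 fit) on log2(RPKM + 0.5), adjusted by Benjamini-Hochberg. Low values fell within 0.05 of a whole read in 24.1 to 28.0% of cases (10% by chance), so no count test was run and depths are approximate. An exact test of 2 libraries against 2 cannot go below 0.3333, so none was run. Replicates are biological, per the methods. The p-values rest on the spread between the 2 libraries of a cross, pooled over the 3 crosses and moderated across genes by eBayes. Scripts were tested on simulated data.

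The members and lists were chosen with earlier results of these data known. Named genes are PHE1 and PHE2, listed regulators and type I MADS-box genes with a member peak, the 8 largest rises and falls called in osd1 against wt and the 3 in each direction in phe1 phe2 osd1 against osd1 among genes with no other peak and with all 4 pairs of libraries alike, genes of the 5 widest peaks, and the 2 most expressed members of each family with 5 or more genes. Other family members, the imprinted genes and AT3G56260 were named after their values were seen. Families were matched by gene symbol, so members without a family symbol are not counted. Homeodomain genes include zinc-finger homeodomain proteins. Alternatives covered overlap, width, TSS set, window, pseudocount, filter, scaling, a rank product, a replicate block and each library left out. The rank product is the method of the study, coded anew in Python 3.11.15 with zeros set to 0.0001 and 100 permutations. It took all 27206 genes, without the filter on reads that the study used. H3K27me3, H3 and input samples were not analysed here.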

Additional observations from a re-analysis of the deposited data

How the results depend on the processing

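Requiring 50% of a peak to be covered gave a median width of 354.5 bp. Keeping only peaks of 400 bp or more left 828 peaks, a median distance of -244 bp and 657 genes. Measured from the nearest edge of the peak, the median distance was -15 bp, and searched in 200 bp the CArG-box share was 2.60%. Of the genes of replicate 2 only peaks, 519 were called in osd1 against wt, and 327 with no filter on low values, and 487 in phe1 phe2 osd1 against wt, and 301 with no filter. Leaving out each library in turn gave 151 to 495 calls in osd1 against wt, 0 to 1 in phe1 phe2 osd1 against osd1 and 123 to 582 in phe1 phe2 osd1 against wt. The rank product called 191 genes in phe1 phe2 osd1 against osd1, at an unadjusted threshold. The share that rose in osd1 stayed above that of all genes under every setting run. Of 62 named genes called in osd1 against wt, 34 kept their call under every alternative run gene by gene, which leaves out the rank product. The rest lost it mainly without wt replicate 1 (28 genes), without wt replicate 2 (25) or with no filter (23). The sign of the log2 fold change turned, in uncalled genes of osd1 against wt only, for YUC11 (-0.486), GL2 (0.032) and AGL87 (0.186) without osd1 replicate 1, for AGL87 under median scaling (0.024), for AT5G55790 without osd1 replicate 2 (0.017) and for NAC100 without wt replicate 2 (-0.022). With each library left out in turn it ranged between -0.486 and 1.959 for YUC11, -1.086 and 0.032 for GL2, -0.213 and 0.186 for AGL87, -1.051 and 0.017 for AT5G55790, and -0.022 and 0.134 for NAC100. Family members named outside the rule were not rerun one by one. The causes were not tested.

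Replicate numbers are shared between crosses but nothing states that they mark a batch, and the deviations of same-numbered libraries correlated at -0.004, -0.011 and 0.174, so they were not taken as pairs. With a replicate block, the calls were 527 in osd1 against wt, 0 in phe1 phe2 osd1 against osd1 and 488 in phe1 phe2 osd1 against wt. In osd1 against wt it ended the calls on LEC1 (limma adjusted p = 0.0586) and NUDT21 (0.0568) and made calls on ARF2 (0.0402), GRP7 (0.046) and MYB32 (0.0352). With 2 libraries per cross and no peak heights, small changes and weak peaks are beyond the precision of these data.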
